A study of Bos taurus with 16 samples.

Results

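Of the genes counted in the whole blood of beef steers, 5 short ones together took 3.40% of all counts. They were selected on length and on summed counts: a length over 300 bp and up to 340 bp, recovered from the deposited tables, and at least 0.3% of the counts of the whole table summed over all steers. These limits were met by 5 of the 27607 genes listed. The window is that of the size of 7SK RNA, and the name rests on size alone. The files give Ensembl identifiers without symbols, sequences or positions, so each RNA is called by its length. The 16 crossbred steers ate a high-forage mixed ration, and 8 carry the label of a high residual feed intake (high-RFI, titles HFE) and 8 that of a low one (low-RFI, titles LFE). Residual feed intake is the feed an animal takes beyond what its weight and growth call for. Blood of several sampling days was combined for each steer, and 1 library per steer was made from total RNA after ribosomal and globin RNA had been removed with a kit for human, mouse and rat. The sources used here give neither the age nor the breeds of the steers.

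7SK RNA is a small nuclear RNA made by RNA polymerase III and is among the most abundant noncoding RNAs of mammalian cells. It holds the elongation factor P-TEFb (the kinase CDK9 with a cyclin T) in an inactive form together with the protein HEXIM1, while MEPCE caps the RNA and LARP7 binds its end, and release of P-TEFb lets paused RNA polymerase II go on. Mammalian genomes carry many copies and pseudogenes of 7SK, and reads from copies that are nearly identical can be assigned to any of them. The sources used here do not say how reads matching several copies were counted, so each count below may be that of 1 copy or may hold reads of others. The proteins of the 7SK particle and the markers of blood cells were not analysed here, because their symbols could not be paired with the identifiers, and the tissue label was therefore not checked against markers.

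Counts on genes ranged from 7.08 to 9.98 M in the steers labelled high-RFI and from 4.80 to 12.2 M in those labelled low-RFI, the lowest being steer 4. The read numbers listed by the study per library follow these counts only once its group names are swapped. Each direction below is that of the sample labels and would turn round with the other names.

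The most abundant of the 5 RNAs was ENSBTAG00000043250, of 331 bp, with 1.66 M counts over all steers, 1.23% of the table and the 7th highest sum of any gene. ENSBTAG00000043482, of 304 bp, followed with 1.05% of the table. The other 3 lay close together: ENSBTAG00000043639 (325 bp) held 0.410%, ENSBTAG00000042601 (314 bp) 0.380% and ENSBTAG00000043885 (318 bp) 0.326% of all counts. Of these 5 lengths, 1 is a multiple of 3, that of the 318 bp RNA. These sums and lengths chose the genes and are given as a description. The 318 bp RNA lay just inside the limit of 0.3%, and the next gene of this size, ENSBTAG00000044427 of 333 bp, lay well outside it with 0.154%, followed by ENSBTAG00000046622 of 313 bp with 0.149%. At the lower limit of length, the nearest abundant genes were 3 of 300 bp with 2.35%, 2.31% and 2.05% of the table. At the upper limit the nearest was ENSBTAG00000051730 of 1460 bp with 1.39%. A further 187 genes of this size had a count and held 0.542% of the table, so the 5 RNAs made up 86.2% of all counts on genes between the limits of length.

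Per length, the order of the 5 RNAs was nearly the same in all steers. Mean FPKM, the deposited count per kilobase relative to a size factor per steer, was 36513 for the 331 bp RNA, 34061 for the 304 bp RNA, 12387 for the 325 bp RNA, 11897 for the 314 bp RNA and 10090 for the 318 bp RNA. The 331 bp RNA was above the 304 bp RNA in 16 of 16 steers, although by a factor in FPKM of only 1.08 ± 0.0280 (SD, n = 16). Between the 304 bp and the 325 bp RNA lay the one large step, a factor in FPKM of 2.75 ± 0.0806 (SD, n = 16). The 325 bp and the 314 bp RNA were neighbours that did not keep their order. The 325 bp RNA was higher per length in 8 of 8 steers labelled low-RFI and in 5 of 8 labelled high-RFI, with a factor between 0.972 and 1.14. The 314 bp RNA was above the 318 bp RNA in 16 of 16 steers, by a factor in FPKM of 1.18 ± 0.0315 (SD, n = 16).

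The first comparison asked whether these RNAs took a different part of the blood RNA under each label. All 5 had a higher mean in the steers labelled high-RFI, and 0 of the 5 were called at FDR 0.05, as given below. Together the 5 RNAs held 3.51% ± 0.474 of the counts of a steer labelled high-RFI (SD, n = 8), with a lowest value of 2.87%, a median of 3.43% and a highest of 4.33%. In the steers labelled low-RFI they held 3.18% ± 0.592 (SD, n = 8), with a lowest value of 2.18% in steer 4, a median of 3.36% and a highest of 3.86%. The groups overlapped over most of their range, with 2 steers labelled high-RFI above and 3 labelled low-RFI below every steer of the other label. The difference of 0.323 percentage points did not pass the two-sided exact permutation test over the 12870 assignments of 8 of the 16 steers (p = 0.249). The level, the summed count divided by the deposited size factors, was 295 ± 42.9 k against 257 ± 48.2 k (SD, n = 8 each). Here k stands for kilocounts. This was a difference of 0.21 on the log2 scale, and it did not pass the test either (exact permutation p = 0.129). Without steer 4 the difference was 0.13 in the log2 level and 0.181 percentage points in the share, and without steer 12 the latter was 0.205. In a bulk library, fewer cells that carry an RNA and less of it per cell cannot be told apart.

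The 331 bp RNA ranged from 84.6 to 130 k normalized counts in the steers labelled high-RFI, with a median of 109 k. In those labelled low-RFI it ranged from 64.2 to 110 k, with a median of 98.0 k. Here 3 steers labelled high-RFI lay above the other group and 2 labelled low-RFI below it. The 304 bp RNA showed the same overlap, from 70.6 to 114 k normalized counts with a median of 92.4 k in the steers labelled high-RFI, and from 50.8 to 95.4 k with a median of 83.6 k in those labelled low-RFI. The 325 bp RNA ranged from 27.5 to 42.5 k (median 35.2 k) in the steers labelled high-RFI and from 20.4 to 37.6 k (median 33.7 k) in those labelled low-RFI. It had the smallest distance between the groups of the 5 RNAs. The 314 bp RNA ranged from 26.3 to 41.5 k (median 33.7 k) against 17.9 to 33.4 k (median 30.7 k). The 318 bp RNA ranged from 23.1 to 37.2 k (median 29.0 k) against 15.4 to 28.0 k (median 25.8 k). In the 314 bp and the 318 bp RNA, 5 of the 8 steers labelled high-RFI lay above every steer labelled low-RFI, and in each of the 5 RNAs 2 steers labelled low-RFI lay below every steer labelled high-RFI.

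**Figure D1:**
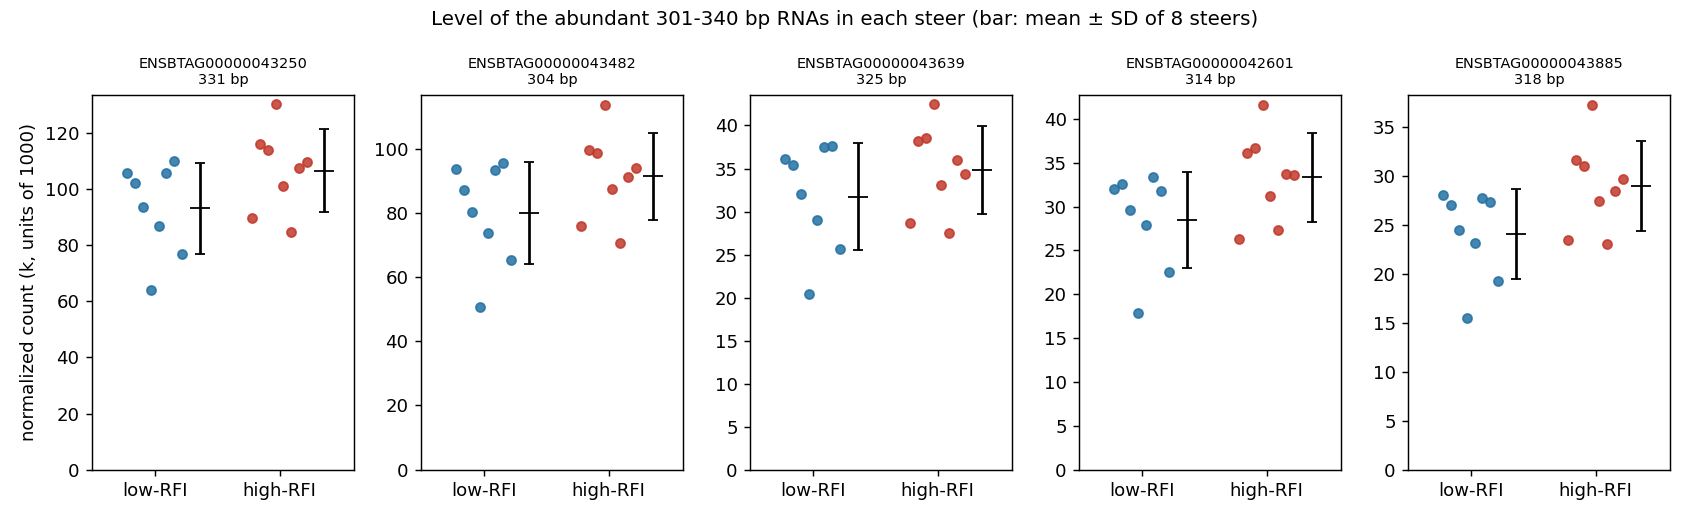
Normalized counts (k, linear axis from 0) of each of the 5 RNAs, 1 panel per RNA, with 1 point per steer (blue low-RFI, red high-RFI) and the mean ± SD of 8 steers beside each group. The groups overlap in every panel, and the lowest point is always steer 4, labelled low-RFI, at 64.2 k for the 331 bp RNA.

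In the quasi-likelihood test of edgeR on raw counts, fitted over all 13265 genes that passed the filter and adjusted over them by Benjamini-Hochberg, 0 of the 5 RNAs were called at FDR 0.05, where 0% of all genes tested were called. All 5 passed the filter. At an unadjusted p under 0.05 stood 0 of the 5 in edgeR, against 5.22% of all genes, or 2.77% with the higher level in the steers labelled high-RFI. The Wald test of DESeq2 called 0 of them at FDR 0.05, where it called 0.0333% of the 21016 genes tested, and 1 at an unadjusted p under 0.05 in the direction of the steers labelled high-RFI, where 2.15% of all genes stood. The voom test of limma also called 0 at FDR 0.05, against 0.098% of all genes, and again put 1 at an unadjusted p under 0.05 in that direction, against 3.25%. In both tools this was the 318 bp RNA. The largest log2 fold change was that of the 318 bp RNA, 0.26 ± 0.13 (SE) with a 95% interval from -0.0032 to 0.53 and an adjusted p of 0.948 from edgeR. Next were the 314 bp RNA with 0.22 ± 0.13 (95% interval -0.046 to 0.49, adjusted p = 0.965 from edgeR) and the 331 bp RNA with 0.19 ± 0.12 (95% interval -0.055 to 0.44, adjusted p = 0.977 from edgeR). The 304 bp RNA had 0.19 ± 0.13 (95% interval -0.084 to 0.46, adjusted p = 0.984 from edgeR) and the 325 bp RNA 0.13 ± 0.13 (95% interval -0.13 to 0.40, adjusted p = 0.999 from edgeR). Without steer 4 these values were 0.19 for the 318 bp, 0.15 for the 314 bp, 0.13 for the 331 bp, 0.12 for the 304 bp and 0.060 for the 325 bp RNA. The intervals over all steers leave room for levels up to 1.45-fold higher in the steers labelled high-RFI for the 318 bp RNA and 1.32-fold for the 325 bp RNA. The median log2 fold change of the 5 RNAs was 0.19, that of all genes tested 0.0016, and 5 of the 5 RNAs had a value above 0, against 50.6% of all genes tested. As the 5 RNAs varied together between steers, these signs are not independent.

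Between steers the levels of the 5 RNAs varied together. Over all 10 pairs, Pearson r of the log2 normalized counts across the 16 steers lay between 0.965 and 0.997 and Spearman rho between 0.897 and 0.988. The permutation p was 1e-05 for each, the smallest that 100000 resamples can give, and 2.5e-05 after adjustment over the 50 coefficients of 25 relations. Without the 2 steers farthest from the median, r stayed between 0.910 and 0.995, and within either group of 8 it was at least 0.977. Both values of a pair share the size factor of the steer. The spread of each RNA was near the middle of that of all genes: the coefficient of variation of normalized counts over all steers ran from 16.5% for the 331 bp RNA to 19.2% for the 318 bp RNA, and the median over all genes tested was 17.3%. Counting error alone gives between 0.327% and 0.640% at these depths, so nearly all of the spread lay between steers or libraries.

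Although the levels did not differ by the test, the shares of 2 of the 5 RNAs within their sum did. Taking the counts of the 5 RNAs in a steer as 100%, the 325 bp RNA had a lower share and the 318 bp RNA a higher share in the steers labelled high-RFI. Under the label high-RFI, the share of the 325 bp RNA was 11.8% ± 0.230 (SD, n = 8), with a lowest value of 11.4%, a median of 11.8% and a highest of 12.1%. Under the label low-RFI it was 12.3% ± 0.187 (SD, n = 8), with a lowest value of 12.1%, a median of 12.3% and a highest of 12.6%. Only 2 steers labelled high-RFI, 11 and 15, reached into the range of the other group. The difference was -0.499 percentage points (exact permutation p = 0.000777, adjusted over the 5 RNAs 0.00194). Under the label high-RFI, the share of the 318 bp RNA was 9.81% ± 0.189 (SD, n = 8), between 9.59% and 10.2% with a median of 9.81%. Under the label low-RFI it was 9.35% ± 0.194 (SD, n = 8), between 9.06% and 9.63% with a median of 9.37%. Steer 5, with 9.63%, was the one steer labelled low-RFI within the range of the other group. The difference was 0.463 percentage points (exact permutation p = 0.000466, adjusted over the 5 RNAs 0.00194). The shares of the 331 bp RNA (36.2% ± 0.347 against 36.3% ± 0.777), the 304 bp RNA (30.9% ± 0.298 against 31.0% ± 0.535) and the 314 bp RNA (11.28% ± 0.283 against 11.04% ± 0.410, SD, n = 8 each) did not pass the test, with adjusted exact permutation p of 0.766, 0.766 and 0.318. These shares sum to 100% and are not independent. This comparison of shares was added after the ratios between the RNAs had been seen, and no other set of genes was compared in this way. Ratios within a similar set, the 7 abundant RNAs of, or just under, 300 bp, also differed in part, with 3 of 21 passing adjustment.

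**Figure D2:**
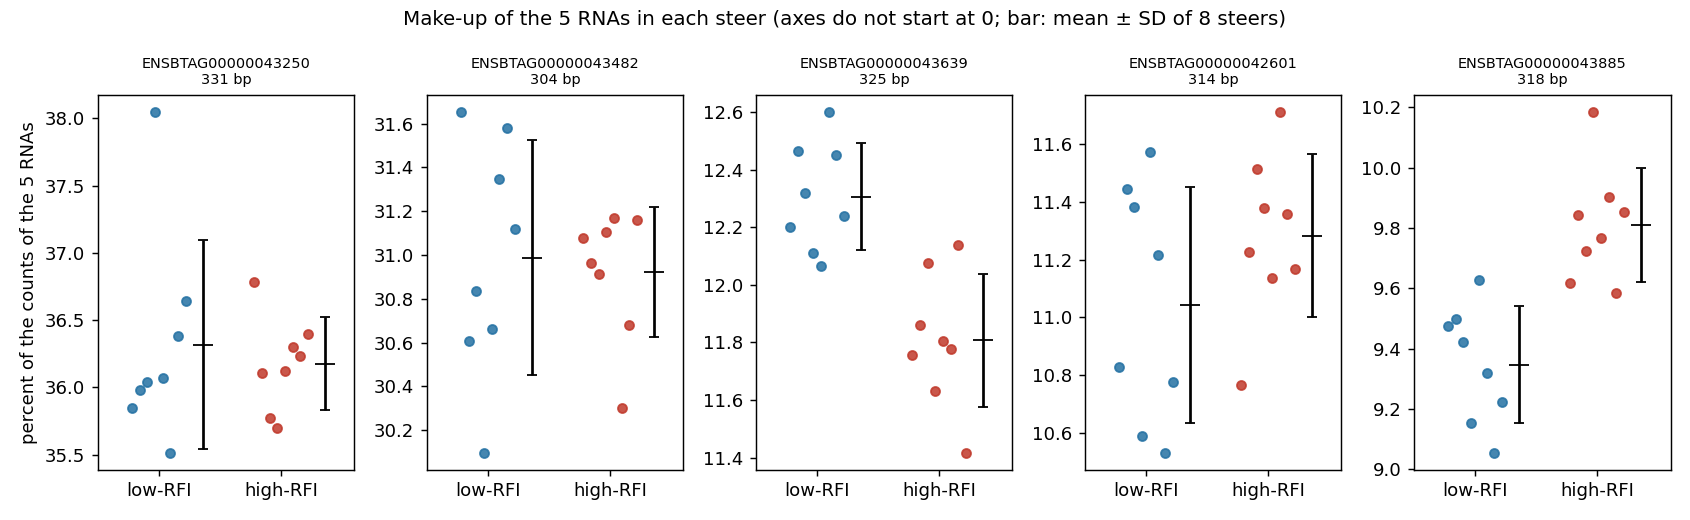
Share of each RNA in the counts of the 5 RNAs (percent, axes not from 0), 1 panel per RNA, with 1 point per steer (blue low-RFI, red high-RFI) and the mean ± SD of 8 steers. The 325 bp RNA lies lower (11.8% against 12.3%) and the 318 bp RNA higher (9.81% against 9.35%) in the steers labelled high-RFI, while the other 3 overlap widely.

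In a ratio of counts within a steer the total and the size factor cancel. The ratio of the 331 bp to the 304 bp RNA still fell with depth, as given below. For the other ratios with the 331 bp RNA, r with depth was also negative, but only between -0.283 and -0.116 without steers 4 and 6. Of the 10 ratios between the 5 RNAs, 6 differed between the labels at an adjusted p under 0.05 (two-sided exact permutation tests, Benjamini-Hochberg over the 10 ratios), and each of the 6 has the 325 bp or the 318 bp RNA as a partner. Among the pairs of abundant genes that are not pairs of the 5 RNAs, 3.11% stood at an unadjusted p under 0.05. All of these were pairs of the 7 abundant RNAs of, or just under, 300 bp, the most similar set. Within that set 23.8% of 21 pairs stood under 0.05, and 3 passed an adjustment over the 21. Over all 171 pairs of abundant genes 0 passed an adjustment, the lowest adjusted value being 0.0531. The ratio of the 325 bp to the 318 bp RNA differed most. Under the label high-RFI it was 1.204 ± 0.0410 (SD, n = 8), between 1.14 and 1.27 with a median of 1.21. Under the label low-RFI it was 1.32 ± 0.0373 (SD, n = 8), between 1.25 and 1.37 with a median of 1.32. In 7 of 8 steers of each label the ratio lay outside the range of the other label, and the exceptions were steer 15, labelled high-RFI, and steer 5, labelled low-RFI. The difference was -0.13 on the log2 scale (95% interval -0.18 to -0.081), a change of the ratio of -8.59% (exact permutation p = 0.000311, adjusted p = 0.00311, the smallest that the design allows being 0.000155).

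The 325 bp RNA was also lower relative to the 314 bp RNA, with a difference of -0.091 in the log2 ratio (95% interval -0.14 to -0.039, exact permutation p = 0.00311, adjusted p = 0.00622). The 304 bp to 325 bp ratio was higher in the steers labelled high-RFI, by 0.057 (95% interval 0.023 to 0.090, exact permutation p = 0.00295, adjusted p = 0.00622), and 5 of 8 of them lay above the other group. The 331 bp to 325 bp ratio differed by 0.054 (95% interval 0.011 to 0.098, exact permutation p = 0.0186, adjusted p = 0.0311), and leaving out any one of steers 2, 3, 6, 7, 9 and 16 brought its adjusted p to between 0.0528 and 0.0637. The 318 bp RNA was higher relative to the 331 bp RNA, that ratio differing by -0.075 (95% interval -0.12 to -0.026, exact permutation p = 0.00218, adjusted p = 0.00622), and relative to the 304 bp RNA, by -0.073 (95% interval -0.11 to -0.034, exact permutation p = 0.00124, adjusted p = 0.00622). The ratio of the 314 bp to the 318 bp RNA differed by -0.038 (95% interval -0.075 to -0.0016) and missed the threshold after adjustment (exact permutation p = 0.0437, adjusted p = 0.0624). Without any one of steers 1, 4, 11, 14 and 15 it passed, with an adjusted p between 0.0364 and 0.0486. The ratios among the 331 bp, 304 bp and 314 bp RNAs did not pass, with differences of -0.0024 for 331 bp to 304 bp (95% interval -0.043 to 0.039), -0.037 for 331 bp to 314 bp (95% interval -0.10 to 0.030) and -0.034 for 304 bp to 314 bp (95% interval -0.095 to 0.026). Ratios that share an RNA are not separate measurements.

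**Figure D3:**
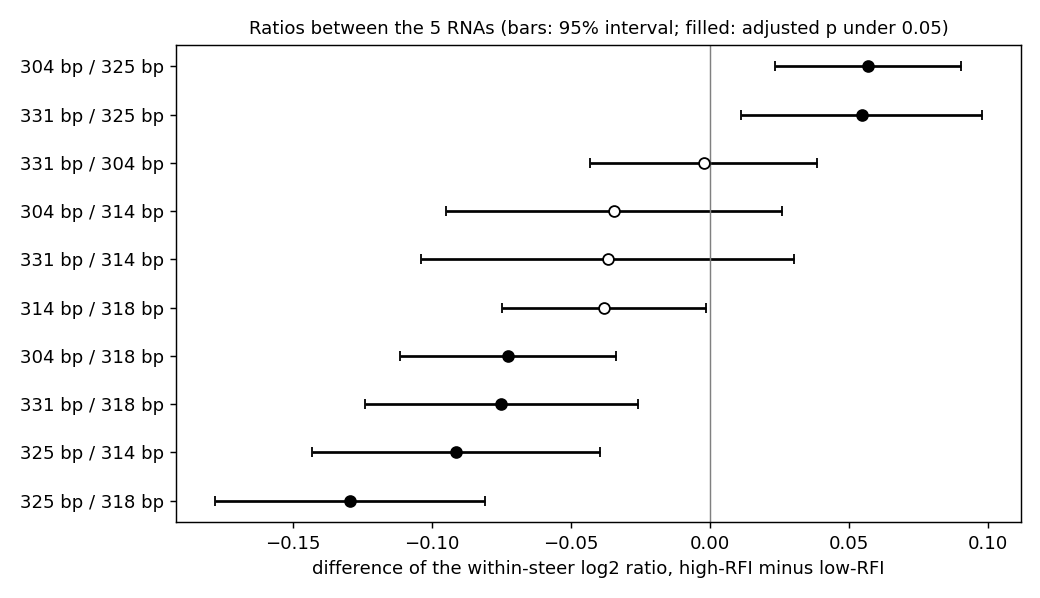
Difference between the labels in the within-steer log2 ratio of counts for the 10 pairs of RNAs, high-RFI minus low-RFI, with the 95% interval; filled points passed an adjusted p of 0.05. The ratio of the 325 bp to the 318 bp RNA lies farthest from 0, at -0.13, and the ratio of the 331 bp to the 304 bp RNA lies at -0.0024.

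The ratios between the 5 RNAs varied little. Over all steers the SD of the log2 ratio was 0.037 for 331 bp to 304 bp and 0.080 for 325 bp to 318 bp, which is 5.28 and 6.47 times the SD that counting error gives. As a background, the same test was run on all pairs of the 19 genes with at least 0.3% of the table. Of the 161 pairs that are not pairs of the 5 RNAs, 3.11% stood at an unadjusted exact permutation p under 0.05, against 7 of the 10 pairs of the 5 RNAs. All of the former were among the 21 pairs of the 7 abundant RNAs of, or just under, 300 bp, of which 5 stood under 0.05 and 3 passed an adjustment over the 21 pairs. Of the remaining 140 pairs, which join less similar genes, 0 stood under 0.05. The spread of their ratios was not compared with that of the 5 RNAs, so 3.11% is not a matched rate. Over all 171 pairs together 7.02% stood under 0.05.

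The ratio of the RNAs with the highest counts went with depth rather than with the label. In 331 bp to 304 bp, the ratio ran from 1.13 in steer 1, with 10.6 M counts, to 1.264 in steer 4, with 4.80 M. Across the 16 steers it fell with the logarithm of total counts (Pearson r = -0.892, permutation p = 5e-05; Spearman rho = -0.791, permutation p = 0.00052; adjusted 0.000119 and 0.00108). Without steers 4 and 6, the farthest from the median depth, r was -0.713, and within the labels it was -0.838 (high-RFI) and -0.914 (low-RFI). No such relation was found for the ratio of the 325 bp to the 318 bp RNA, with r = 0.0199 (permutation p = 0.943), rho = 0.0882 (permutation p = 0.748), r = 0.0441 without steers 4 and 6, and r of -0.171 and -0.122 within the labels. Among the other 8 ratios, that of the 331 bp to the 325 bp RNA had the largest r with depth, -0.590 (permutation p = 0.0151, adjusted 0.0280; rho = -0.453), which became -0.283 without steers 4 and 6. For 331 bp to 314 bp r was -0.522 (permutation p = 0.0385, adjusted 0.0664; rho = -0.241), and -0.116 without steers 4 and 6. For 331 bp to 318 bp r was -0.455 (permutation p = 0.0783, adjusted 0.129; rho = -0.124), and -0.165 without steers 4 and 6. Within the labels, r for 331 bp to 318 bp was -0.560 (high-RFI) and -0.762 (low-RFI), the low-RFI value being -0.410 without steer 4. Over all steers but steer 4 it was -0.0660. For 331 bp to 325 bp, r was -0.361 (high-RFI) and -0.774 (low-RFI, -0.360 without steer 4). For 331 bp to 314 bp, r was -0.334 (high-RFI) and -0.658 (low-RFI, -0.247 without steer 4). The relations of the ratios with depth were added after the ratios had been seen, for all 10 ratios, and the cause was not tested.

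**Figure D4:**
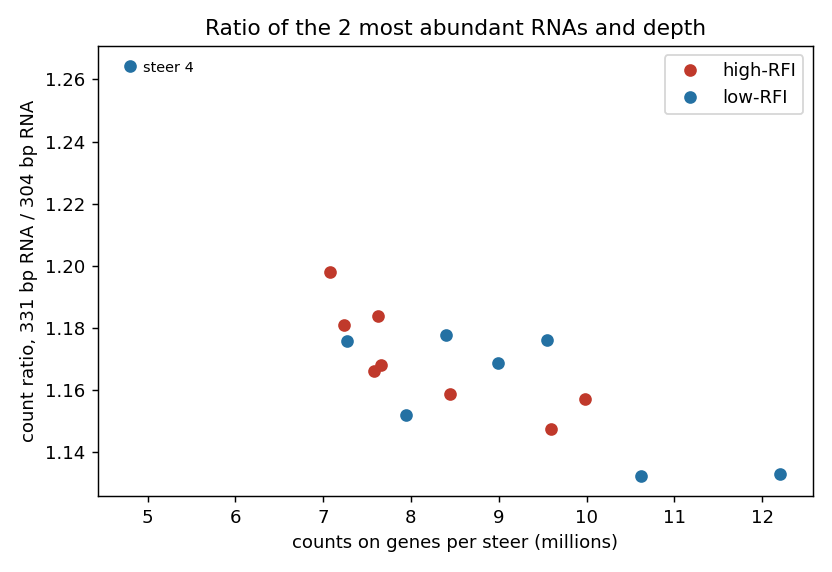
Ratio of counts of the 331 bp to the 304 bp RNA (linear axis, not from 0) against the counts on genes of each steer (M), 1 point per steer, blue low-RFI and red high-RFI. The ratio falls from 1.264 in steer 4, at 4.80 M counts, to 1.13 in the deepest libraries, and both labels follow the same course.

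The genes nearest to the 5 RNAs in both size and abundance were the 7 abundant RNAs of, or just under, 300 bp, the size of 7SL RNA, the RNA of the particle that takes nascent secreted proteins to the endoplasmic reticulum. They held 10.9% of the table, and their log2 fold changes from edgeR, between 0.12 and 0.27 with a median of 0.20, were of the same order as those of the 5 RNAs, with 0 of 7 called. The counts of the 5 RNAs were 0.315 ± 0.0277 times theirs in the steers labelled high-RFI and 0.328 ± 0.0903 times in those labelled low-RFI (SD, n = 8 each). The log2 ratio differed by -0.018 (exact permutation p = 0.906), and its sign turned without steer 1, 7 or 11, with differences of 0.083, 0.024 and 0.0046. Steer 1 had the highest ratio, 0.520, with 7.42% of its counts on the RNAs of 7SL size and, on the 5 RNAs, 3.86%, the highest share of its group. Across the 16 steers the levels of both sets were related (Pearson r = 0.672, permutation p = 0.00461; Spearman rho = 0.718, permutation p = 0.00222; adjusted 0.00887 and 0.00444), with r = 0.673 without steers 1 and 4. The relation was close in the steers labelled high-RFI (r = 0.927) and looser in those labelled low-RFI (r = 0.452), where it was 0.753 without steer 1 and -0.216 without steer 4. Whether the relation differs between the labels was not tested.

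A higher coefficient was found with the less abundant genes of the same size, although the difference between the coefficients was not tested. The level of the 5 RNAs followed that of the other 187 genes over 300 and up to 340 bp across the 16 steers (Pearson r = 0.843, permutation p = 9e-05; Spearman rho = 0.856, permutation p = 6e-05; adjusted 0.000196 and 0.000136), with r = 0.906 without steers 1 and 4, and 0.892 and 0.765 within the labels high-RFI and low-RFI. Within the label low-RFI it was 0.972 without steer 1 and 0.431 without steer 4. The log2 ratio of the 5 RNAs to these genes differed by 0.065 between the labels (exact permutation p = 0.453), by 0.022 without steer 4, 0.034 without steer 8, 0.036 without steer 12 and 0.12 without steer 1. With total counts, the level of the 5 RNAs had r = 0.588 (permutation p = 0.0198, rho = 0.362, permutation p = 0.168, adjusted 0.0354 and 0.247), but without steers 4 and 6 r was 0.214, and without steer 4 alone 0.238, so the pooled value rested on steer 4. Within the labels r was 0.646 (high-RFI) and 0.720 (low-RFI), the latter 0.217 without steer 4. With the size factor r was 0.446 (permutation p = 0.0829, adjusted 0.130) and with the number of genes with a count 0.400 (permutation p = 0.125, adjusted 0.189), with rho of 0.291 and 0.224 (permutation p = 0.274 and 0.406), and without the 2 farthest steers r was 0.124 and 0.101.

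**Figure D5:**
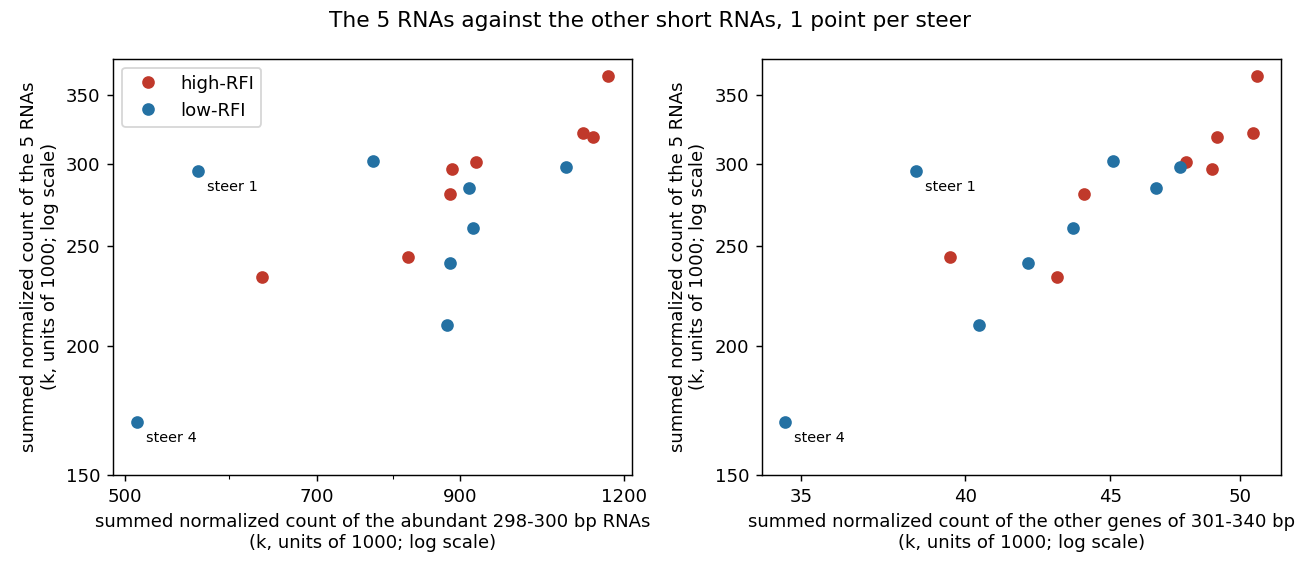
Summed normalized count of the 5 RNAs against that of the abundant RNAs of 7SL size (left) and of the other genes of the size of the 5 RNAs (right), in k on log axes, 1 point per steer, blue low-RFI and red high-RFI. Pearson r is 0.843 on the right and 0.672 on the left, where steer 1 lies far above the other steers with a like level of the RNAs of 7SL size.

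Among the 13260 other genes tested, those whose log2 normalized counts followed the level of the 5 RNAs most closely across the 16 steers were ENSBTAG00000042716, of 316 bp (Pearson r = 0.985), and ENSBTAG00000043900, of 309 bp (r = 0.965), both within the same range of length although length played no part in this ranking. They held 0.0161% and 0.0126% of the table, between 755 and 1742 normalized counts per steer for the former and between 639 and 1377 for the latter. The median r of all genes tested was 0.013. Of the 100 genes with the highest r, 48 were shorter than 400 bp, against 3.24% of the genes ranked, and 8 were within the length limits of the 5 RNAs, of 72 such genes ranked. The 7 abundant RNAs of 7SL size were not among these 100 and had r between 0.593 and 0.681. Genes of this size did not all follow the 5 RNAs: the 333 bp gene just under the limit of the sum, ENSBTAG00000044427, had r = 0.241 and the 313 bp gene, ENSBTAG00000046622, r = 0.662. At the other end of the ranking stood ENSBTAG00000054329, of 1272 bp (r = -0.911), and ENSBTAG00000014429, of 17858 bp (r = -0.886). These coefficients describe the ranking, share the size factor, and carry no test. None of the 4 genes at the ends of the ranking passed FDR 0.05 between the labels, with log2 fold changes from edgeR of 0.18, 0.12, -0.14 and -0.15.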

How the data were processed

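Whole-blood RNA of 16 steers, 1 library each, was compared between 8 steers labelled high-RFI and 8 labelled low-RFI. According to the methods of the study, the authors used Trimmomatic for trimming, HISAT2 for alignment to ARS-UCD1.2 and GenomicAlignments for counts per gene, with duplicates marked. The annotation, the use of strand and the treatment of multiply aligned reads are not given in the sources used here. Deposited were raw counts per gene, normalized counts (a signal, the counts divided by 1 DESeq2 size factor per steer) and FPKM (normalized counts per kilobase and per M of the geometric mean of the column totals). Multiplied by the size factor, 100% of the normalized counts were whole reads to within 0.001 and equal to the raw counts. edgeR on these reads called 0 genes at FDR 0.05, as on the raw counts.

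Gene length was the normalized count over FPKM, scaled, and was whole to within 0.001 bp for all 21016 genes with a count. The main comparison of raw counts was by edgeR 4.0.16, quasi-likelihood test (robust, TMM, filterByExpr). DESeq2 1.42.0 and limma 3.58.1 (voom with sample quality weights, log2(FPKM + 0.1) and log2(FPKM + 1)) in R 4.3.3 were alternatives, with other scalings, no filter, other limits of the rule and each steer left out. Standard errors are the log2 fold change over the square root of F. Intervals of ratios use the SD within groups. Shares, levels and ratios were tested by exact two-sided permutation of 8 of 16 steers in Python 3.11.15. The comparison of shares among the 5 RNAs, the background of ratios, the relations of ratios with depth and the edgeR test on recovered reads are additions made after the values had been seen. The 5 RNAs, the limits and the lists were chosen with earlier results of these data known. The genes named were the 5 RNAs, those next to the limits, the abundant RNAs of 7SL size, and the 2 genes of highest and 2 of lowest r. The lists of 7SK particle genes and of blood cell markers gave no result, because the RefSeq table of ARS-UCD2.0 pairs none of the identifiers with a symbol. The counts per steer are the depth behind all values.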

Additional observations from a re-analysis of the deposited data

Results flagged for a closer look

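Within each label, the most extreme of the 8 steers was set against its neighbour for 21 measures, 42 groups in all. In 2 of them the gap, divided by the range, passed Dixon's 95% critical value, which chance alone passes in about 1 of 20. Both concern steer 4, labelled low-RFI and the library of fewest counts (4.80 M). Its ratio of the 331 bp to the 304 bp RNA was 1.264, or 0.34 on the log2 scale, and that of the neighbour 1.18, a gap of 0.644 of the range. Its number of genes with a count was 16891 and that of the neighbour 17404, a gap of 0.54 of the range.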

How the results depend on the processing

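No paired analysis was possible because the groups share no replicate number. Of 472 alternative values of 25 results, 452 kept their direction and their side of the threshold. The number of the 5 RNAs called was 0 in all 25 alternatives, including those that leave out a steer, with the lowest adjusted p of any of them at 0.671 or above. The unadjusted p of the 318 bp RNA fell on both sides of 0.05. It ran from 0.0239 to 0.103 under the other fits of edgeR, DESeq2 and limma, and from 0.0263 to 0.121 in edgeR without 1 steer. The log2 fold change ran from 0.21 to 0.31 under the other fits and from 0.19 to 0.31 without 1 steer for the 318 bp RNA, and from 0.077 (library totals only) to 0.18 and from 0.060 (without steer 4) to 0.18 for the 325 bp RNA. That of the 304 bp RNA ran from 0.13 to 0.24 and from 0.12 to 0.24, that of the 331 bp RNA from 0.14 to 0.23 and from 0.13 to 0.24, and that of the 314 bp RNA from 0.17 to 0.26 and from 0.15 to 0.27. The share of all counts differed by 0.211 to 0.487 percentage points under other limits and denominators, and by 0.181 (without steer 4) to 0.420 without 1 steer, and the log2 level by 0.13 (without steer 4) to 0.26. Without 1 steer, the log2 ratio differed by 0.045 to 0.067 for 331 bp to 325 bp, where 6 of 16 values missed the threshold, and by -0.045 to -0.032 for 314 bp to 318 bp, where 5 passed it. It differed by -0.0094 to 0.013 for 331 bp to 304 bp and by -0.078 to 0.083 for the 5 RNAs to the abundant RNAs of 7SL size, turning sign without steer 4 or 12 in the former and without steer 1, 7 or 11 in the latter. The ratio of 325 bp to 318 bp kept its difference between -0.14 and -0.12, with adjusted exact permutation p between 0.00155 and 0.00622. The shares of the 325 bp and the 318 bp RNA among the 5 differed by -0.546 to -0.443 and by 0.409 to 0.503 percentage points. Those of the 331 bp and the 304 bp RNA turned sign, from -0.253 to 0.109 (above 0 without steer 4) and from -0.193 to 0.0292 percentage points (above 0 without steer 1, 7 or 14). The cause was not tested. Ratios taken in FPKM gave the same values, as length and size factor cancel in the difference. These values and those of edgeR on recovered reads were fixed in advance, and they are counted among the 472. Counting error is under 1% of the mean count of each RNA, but the ratio of 331 bp to 304 bp went with depth beyond it.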
